A study of Mus musculus with 18 samples.

Results

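Imprinted genes are transcribed mainly from the copy inherited from 1 parent. The choice of copy rests on DNA methylation laid down in the egg or the sperm at imprinting control regions, and at several of these loci the insulator protein CTCF and cohesin, the ring complex that holds DNA loops, bind on the unmethylated copy. Mouse embryonic stem cells (mESCs) are known to vary in their imprints from culture to culture. The 10 imprinted genes *H19*, *Igf2*, *Cdkn1c*, *Meg3*, *Rian*, *Peg3*, *Peg10*, *Mest*, *Grb10* and *Plagl1* were taken by name from the deposited table of serum-grown mESCs, where all 10 of them had a row among 18659 genes. A wider list of 64 imprinted genes, written from textbook knowledge, had 58 genes in the table, 48 of them beyond these 10. The measurements are of total RNA per gene and do not separate the maternal from the paternal copy.

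The study asked how loss of *Stag1*, which encodes the cohesin subunit STAG1, changes the transcriptome. All cells were male E14 mESCs in serum (FCS) with LIF, and all siRNAs were transfected with RNAiMax for 24 h. The 16 libraries of rRNA-depleted RNA fall into 3 replicate sets. In set 1 there was a single library of scrambled siRNA (scr), with 3 libraries (1a, 1b and 1c) of SP, the SmartPool of commercial siRNAs to *Stag1*. Sets 2 and 3 each held 1 library of scr, SP, 3p (a pool to the 3′ end of *Stag1*), 5p (a custom duplex to its 5′ end) and SATS (siRNA made enzymatically against the *Stag1* 5′ UTR arising from the SATS promoter). Set 2 also held untreated cells, and set 3 held cells given siRNA to luciferase, a gene that mouse cells lack. What separated 1a, 1b and 1c was not given, so they were averaged to 1 sample in tests.

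Values are reads divided by 1 size factor per library. Libraries held 9023224 to 14040830 reads on genes in set 1 and 32137666 to 45660840 in sets 2 and 3, and without *Rn45s*, the precursor of ribosomal RNA, 1883691 to 4321867 and 25978759 to 36332493. The targeted gene checks the labels only in part, since its level does not tell SP, 3p and 5p apart, nor scr from luciferase. *Stag1* stood at 17.3% to 32.8% of scr of the same set in the 9 libraries of SP, 3p and 5p, at 49.7% and 50.5% in SATS, at 86.3% in untreated cells and at 104% in luciferase. All 8 mESC markers listed, among them *Pou5f1*, *Sox2* and *Nanog*, were above 0 in every library, with a summed value of 30117 to 64140. The 8 fibroblast markers listed, led by collagen genes, summed to 116 to 564 in set 1, 2649 to 5752 in set 2 and 407 to 603 in set 3, and the 6 trophoblast markers in the table to 334 to 589, 1122 to 1467 and 549 to 715. Each set is 1 experiment, and p-values measure the spread between these samples.

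Per kilobase of exon (GENCODE M21 gene models), *Peg10*, a gene derived from a retrotransposon that is needed in the placenta, had the highest level of the 10, with a mean value of 5398 per kb over the 12 libraries of sets 2 and 3. *Mest*, which encodes a hydrolase-like protein of mesoderm, followed with 604 per kb. *Grb10*, an adaptor that damps signalling from the insulin and IGF receptors, stood at 319 per kb, and *Cdkn1c*, an inhibitor of cyclin-dependent kinases that restrains growth, at 293 per kb. Their libraries overlapped in both sets (278 to 332 and 307 to 372 per kb for *Grb10*, 238 to 295 and 273 to 400 per kb for *Cdkn1c*), so the order of these 2 neighbours was within their spread. *Igf2*, the paternally expressed growth factor, changed rank with the set: it was 323 to 427 per kb in set 2, with a median of 361 above those of *Grb10* (298) and *Cdkn1c* (266), and 77.1 to 111 per kb in set 3, with a median of 96.8 below that of *H19* (125). *Peg3*, a zinc finger protein, stood at 209 per kb and *Rian*, a maternally expressed noncoding RNA that hosts snoRNAs and miRNAs, at 205 per kb. Their order also changed with the set, without overlap. *Peg3* was 211 to 281 per kb in set 2 and 131 to 221 per kb in set 3. *Rian* was 137 to 165 per kb in set 2, with a median of 148 below that of *H19* (163), and 224 to 344 per kb in set 3. *H19*, the maternally expressed noncoding RNA next to *Igf2*, stood at 149 per kb. *Meg3*, the noncoding RNA upstream of *Rian*, had 80.8 per kb. *Plagl1*, a zinc finger transcription factor, was lowest, at 25.3 per kb.

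**Figure D1:**
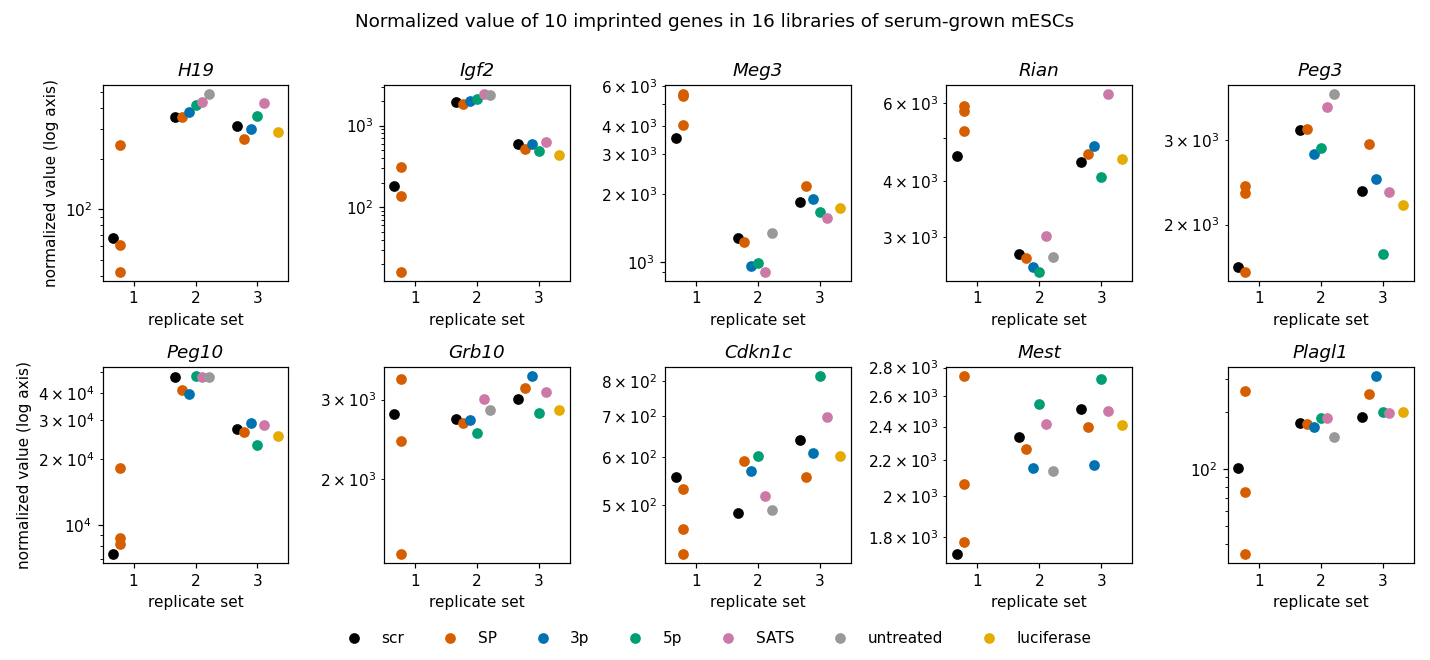
Normalized value (log axis, scaled for each gene) of the 10 imprinted genes in each of 16 libraries, by replicate set and coloured by siRNA or control. *Igf2* and *Peg10* lie higher in set 2 than in set 3, and *Meg3* and *Rian* the other way round. Within sets 2 and 3 the siRNAs mostly lie close together, whereas in set 1 *Igf2* runs from 16.1 to 314.

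In sets 2 and 3 the largest difference in any of the 10 genes was between the sets, in *Igf2*, and not between an siRNA and scr. Between the 6 libraries of set 2 and the 6 of set 3, whatever their siRNA, 5 of the 10 genes did not overlap, against 26.1% of the 16490 genes tested. Of them, *Igf2* and *Peg10* were higher in set 2 (15.1% of all genes were) and *Meg3*, *Rian* and *Plagl1* in set 3 (11.0%). With medians at least 1.5-fold apart as well, 4 of the 10 remained, against 12.5% of all genes. The labels give the sets only as replicate numbers, and these values are descriptions with no test.

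*Igf2* (chr7:142650766-142666816 of GRCm38, minus strand) gave the largest difference. In set 2 its value was 1922 in scr, 1850.5 in SP, 2019 in 3p, 2117 in 5p, 2443 in SATS and 2374 in untreated cells. In set 3 it was 602 in scr, 519 in SP, 589 in 3p, 493 in 5p, 636 in SATS and 441 in luciferase. All 6 libraries of set 2 lay above all 6 of set 3, by 3.73-fold in their medians. In set 1 it was lower again, 181 in scr and 136, 16.1 and 314 in SP 1a, 1b and 1c. The value in 1b stood on 5 reads (95% Poisson interval 5.22 to 37.5 in normalized value), and those in the other libraries of set 1 on 27 to 39 reads; such intervals cover counting error only. Its antisense partner *Igf2os*, which overlaps it, was at least 40.7 in set 2 and at most 22.4 in set 3, and whether the counting used strand is given only for the paired-end libraries.

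The fibroblast markers, like *Igf2*, were highest in set 2 without overlap, and so were the trophoblast markers. Between sets 1 and 3 the fibroblast sums overlapped, whereas *Igf2* did not. In set 2 the untreated library had the highest fibroblast sum, 5752, and SATS the highest *Igf2*. In 1b, the library with the lowest *Igf2*, the fibroblast sum was 116, the lowest of the 16 libraries, and in 1c, the highest *Igf2* of set 1, it was 564. *Dcn*, *Lum* and *Postn* were at 0 in scr, 1a and 1b of set 1. Within sets, the gene whose level followed *Igf2* most closely over the 12 libraries of sets 2 and 3 was *Acta2*, smooth muscle actin (Pearson r = 0.89 on log2 values less the set mean), followed by *Parva*, an actin-binding adhesion protein (r = 0.88), and *Cnn1*, calponin of smooth muscle (r = 0.85). These correlations are across libraries that share their set and size factor and were picked as the highest of 11026 genes. The part of other cell types in the level of *Igf2* was not tested, and fewer cells of a type cannot be told apart from less RNA per cell.

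**Figure D2:**
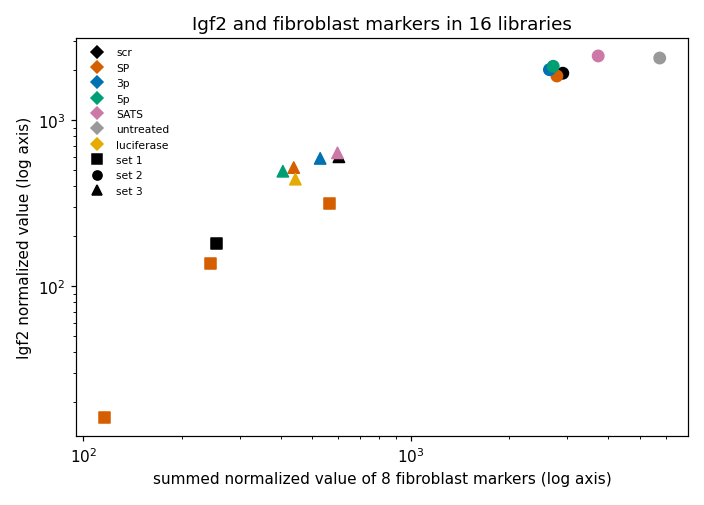
Normalized value of *Igf2* against the summed normalized value of 8 fibroblast markers in each of 16 libraries (both axes logarithmic), with the set as the symbol and the siRNA or control as the colour. The 3 sets form separate clouds, with set 2 at a marker sum of 2649 and above.

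*H19* (chr7:142575529-142578143, minus strand) shares an imprinting control region and enhancers with *Igf2*, and hosts miR-675, whose mature strands are shown with the seed, bases 2 to 8, in capitals because the host RNA is their precursor (RefSeq, GRCm38.p6, minus strand).
mmu-miR-675-5p (chr7:142577112-142577133): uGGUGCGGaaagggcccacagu
mmu-miR-675-3p (chr7:142577078-142577099): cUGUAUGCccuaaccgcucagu
*H19* differed in the same direction as *Igf2* between the medians of sets 2 and 3, but by less, 1.31-fold. It was 354 to 488 in set 2 (median 401) and 264 to 432 in set 3 (median 307), which overlap. In set 1 it was 67.0 in scr and 42.3, 61.1 and 242 in SP 1a, 1b and 1c, on 9 to 30 reads. The ratio of *H19* to *Igf2* ran from 0.178 to 0.205 in set 2 and from 0.510 to 0.730 in set 3, without overlap between these sets. In set 1 it was 0.370 in scr and 0.310, 3.80 and 0.769 in SP 1a, 1b and 1c, a range that holds that of set 3. Within sets the deviations of *H19* and *Igf2* correlated at r = 0.64 over the 12 libraries, and the gene closest to *H19* was *Igfbp2*, an IGF-binding protein (r = 0.92).

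*Peg10* (chr6:4747306-4760517) was 39809 to 47789 in set 2 and 23302 to 29080.0 in set 3. Every library of set 2 was above every library of set 3, by 1.76-fold in the medians. In set 1 it was 7379.7 in scr and 8744, 8223 and 18297 in SP 1a, 1b and 1c. *Sgce*, the paternally expressed sarcoglycan gene that shares its promoter region, overlapped between sets, with a median of 145 in set 2 and 123 in set 3. *Calcr*, the calcitonin receptor gene of the same locus, went the other way, with 25.4 to 35.8 in set 2 and 158 to 239 in set 3.

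The *Dlk1-Dio3* locus of chromosome 12 makes *Meg3*, *Rian* and *Mirg* from the maternal copy, on the same strand, and *Dlk1*, *Rtl1* and *Dio3* from the paternal copy. *Meg3* (chr12:109541001-109571726) was 903 to 1343 in set 2 and 1564 to 2157 in set 3, 1.61-fold higher in the median of set 3. *Rian* (chr12:109603940-109661716) was 2504 to 3017 in set 2 and 4082 to 6277 in set 3, 1.69-fold higher. *Mirg*, the most distal of these noncoding RNAs, was 141 to 172 in set 2 and 183 to 301 in set 3, 1.78-fold higher. All 3 maternal RNAs were thus higher in set 3 without overlap, and *Dio3*, a deiodinase of thyroid hormone, was lower there (73.5 to 95.3 in set 2 and 31.5 to 46.6 in set 3). *Dlk1*, a membrane ligand related to Notch ligands, overlapped, with 69.4 to 132 in set 2 and 98.9 to 120.3 in set 3. *Rtl1* stayed at or under 2.14 in all libraries.

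In set 1 *Meg3* was 3522 in scr and 4047, 5384 and 5525 in SP 1a, 1b and 1c, above all 12 other libraries. Among the 10 genes it was the only gene higher in set 1 without overlap (7.54% of all genes were), and *H19*, *Igf2* and *Peg10* were lower there (10.5%). *Kcnq1ot1*, a long nuclear noncoding RNA of the imprinted *Kcnq1* domain, was also higher in set 1 than in all other libraries, with 5685 to 6417 in set 1, 1007 to 1415 in set 2 and 1318 to 2022 in set 3. *Cdkn1c*, a protein-coding gene of that domain, was 415 to 556, 484 to 602 and 556 to 815, which overlap. The libraries of set 1 also differed in that *Rn45s* took 69.2% to 79.1% of their reads, against 14.7% to 23.9% in sets 2 and 3. The part of this in the values of set 1 was not tested.

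Because *Meg3* differed between the sets, the 30 bases around the hexamer TGCCGC before its first start site are shown (RefSeq, GRCm38.p6, plus strand). Capitals mark TGCCGC or its reverse complement GCGGCA, the letters that the zinc finger protein ZFP57 binds when methylated.
Meg3 upstream (chr12:109540794-109540823): gccaggggcactGCGGCAgatttttttttc
In windows from 250 bases before to 50 after the start, searched on both strands, the hexamer was in 6 of 14 promoters of 7 of the 10 genes, against 11.6% of 32851 promoters in the table. By gene it was at *Igf2*, *Meg3*, *Mest*, *Grb10* and *Plagl1*, 5 of 7, against 13.1% of 27025 genes. The *Mest* windows starting at chr6:30737800 and chr6:30737803 overlap and hold the same sites, and both count among the 6. These 7 genes also had more windows per gene than all genes did, which raises the share by gene. *H19*, *Peg10* and *Cdkn1c* had no entry. The median GC content of the 14 windows was 60.3% against 52.7% of all, and the median ratio of observed to expected CpG was 0.527 against 0.384. A match is a description of the sequence and does not show binding.

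The question for the siRNAs was whether any of them changed these genes against scr. In the fit without a block, limma with Benjamini-Hochberg adjustment called 0 of the 10 genes in each comparison. Over 3 sets, SP against scr called 0 of 15970 genes (0%), and 84 genes (0.526%), none of the 10, had an unadjusted p under 0.05. In sets 2 and 3, the share of 16490 genes called was 0.00606% for SP, 0.00606% for 3p, 0.0121% for 5p, 0% for SATS and 0% for 5p against 3p. At an unadjusted p under 0.05, this fit had 0 of the 10 genes in the 4 comparisons with scr and 1, *Mest*, in 5p against 3p, against 2.49% of all genes for SP, 1.73% for 3p, 3.63% for 5p, 3.94% for SATS and 4.09% for 5p against 3p. edgeR and DESeq2 on the recovered reads, without a block, also called 0 of the 10 genes in all 6 comparisons. The set difference enters the error of this fit, so its intervals are wide: for *Igf2* under SP the 95% interval was -2.63 to 2.36 on the log2 scale.

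With the set as a block, the calls over all genes rose to 0.746% for SP, 0.285% for 3p, 2.37% for 5p, 2.64% for SATS and 3.26% for 5p against 3p, and stayed at 0% for SP over 3 sets, where limma with the block had 935 of 15970 genes (5.85%) and 1 of the 10, *Peg3*, at an unadjusted p under 0.05, and edgeR with the block called 66 genes (0.413%). Of the 10 genes, 0 were then called against scr under SP, 3p, 5p or SATS and 1, *Mest*, in 5p against 3p. edgeR with the block called 0 of the 10 in all 6 comparisons, and of all genes 0.813% for SP, 0.303% for 3p, 2.41% for 5p, 3.34% for SATS and 3.21% for 5p against 3p. At an unadjusted p under 0.05 the blocked limma fit had 0 of the 10 for SP, 1 for 3p, 4 for 5p, 4 for SATS and 2 for 5p against 3p, against 12.5%, 10.4%, 15.7%, 18.8% and 15.8% of all genes. The lowest and highest bounds of the blocked 95% intervals over the 10 genes were -0.38 and 0.56 for SP, -0.37 and 0.69 for 3p, -0.54 and 0.59 for 5p and -0.56 and 0.61 for SATS. The width of the intervals differed between genes, and some intervals within these bounds lay wholly on 1 side of 0.

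**Figure D3:**
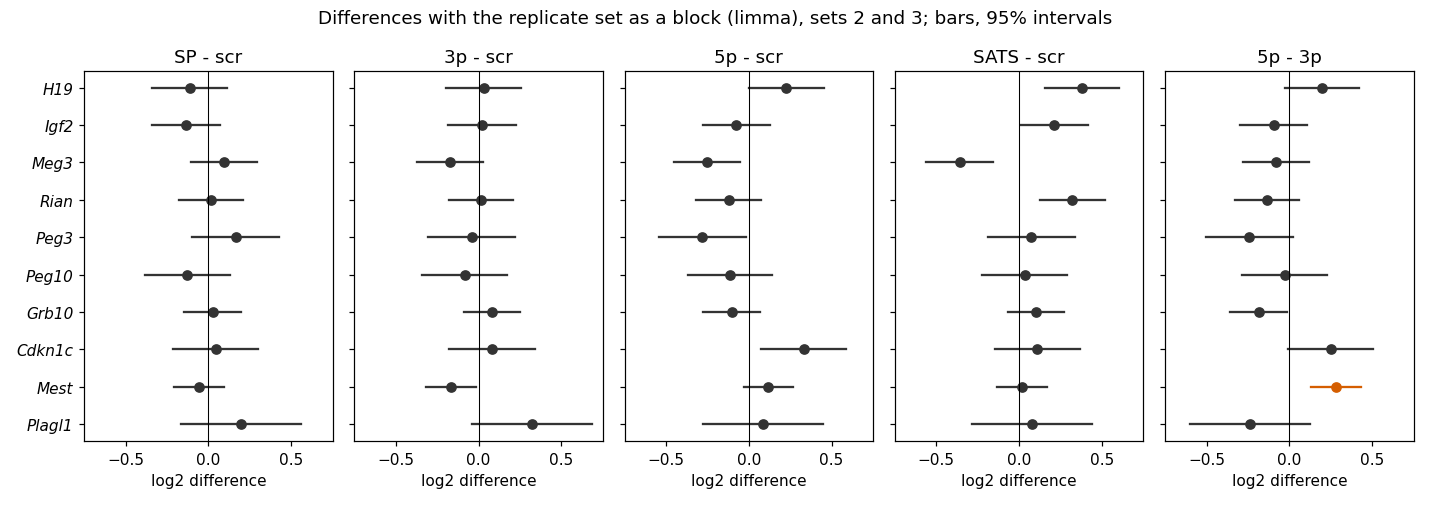
Log2 difference of each of the 10 genes between siRNAs in sets 2 and 3, from limma with the replicate set as a block; points are estimates, bars 95% intervals, and the gene past an adjusted p of 0.05 is in orange. *Mest* in 5p against 3p is the only gene past it.

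*Mest* (chr6:30723547-30748465) was the only gene of the 10 called between 5p and 3p, and only by limma with the block. In set 2 it was 2338 in scr, 2262 in SP, 2157 in 3p, 2547 in 5p, 2416 in SATS and 2135 in untreated cells. In set 3 it was 2516 in scr, 2400.2 in SP, 2168 in 3p, 2721 in 5p, 2498 in SATS and 2413 in luciferase. 5p was the highest library of each set, and 3p was the lowest of set 3 and lower than all but the untreated library in set 2. The log2 difference of 5p from 3p was 0.28. Without the block its SE was 0.087 (adjusted p = 0.905), and blocking by set brought the SE to 0.070 (adjusted p = 0.0404; limma with Benjamini-Hochberg adjustment in both). With edgeR and the block the adjusted p was 0.0635. Against scr, 3p gave -0.17 (SE 0.070, adjusted p = 0.430 from limma with the block, Benjamini-Hochberg adjustment). The untreated library stood at 91.3% of scr, and 3p of set 2 at 92.3%.

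*Mest* overlaps *Copg2*, a coatomer gene on the other strand, at its 3′ end. *Copg2* was 619 in 3p and 663 in 5p of set 2 and 749 in 3p and 831 in 5p of set 3, again higher in 5p. The sequence before a *Mest* start (plus strand, same source and capitals) holds the hexamer at 2 sites, shown with 30 bases each, and the miRNA pair of its intron is shown because the same transcript carries it.
Mest upstream (chr6:30737800-30737829): ccttgcccGCGGCAttaacacatgggaagg
Mest upstream (chr6:30737971-30738000): aggaggggcgctGCGGCAggatgggcgggt
mmu-miR-335-5p (chr6:30741314-30741336): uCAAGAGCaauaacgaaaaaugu
mmu-miR-335-3p (chr6:30741354-30741375): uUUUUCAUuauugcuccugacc
The row of the *Mir335* precursor held 3 to 15 reads in the 12 libraries of sets 2 and 3, too few to compare the siRNAs.

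SATS gave the 3 smallest adjusted p-values of the 10 genes against scr, none of them under 0.05. *Meg3* was below its scr library in both sets: 903 against 1270.0 in set 2 and 1564 against 1831 in set 3. These were the lowest *Meg3* values of their sets. The log2 difference was -0.36 (SE 0.094, adjusted p = 0.0563 from limma with the block, Benjamini-Hochberg adjustment). *Rian* lay on the other side of scr, 3017 against 2749 in set 2 and 6277 against 4407 in set 3, the highest values of their sets. Its log2 difference was 0.32 (SE 0.090, adjusted p = 0.0735 from limma with the block, Benjamini-Hochberg adjustment). *H19* was 435 against 354 in set 2 and 432 against 312 in set 3, a difference of 0.38 (SE 0.105, adjusted p = 0.0686 from the same test). In set 2 the untreated library, at 488, had more *H19* than SATS.

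*Igf2* was 2443 under SATS against 1922 in scr of set 2 and 636 against 602 in set 3, and its difference of 0.21 (SE 0.095) had an adjusted p of 0.245 in limma with the block (Benjamini-Hochberg adjustment). The fibroblast markers summed to 3732 under SATS and 2910.0 in scr of set 2, and to 597 and 603 in set 3. Their part in the values under SATS was not tested. With the untreated and luciferase libraries added to scr as controls, and the block, an alternative chosen after seeing the data, *Rian* (0.32, adjusted p = 0.0101) and *Meg3* (-0.36, adjusted p = 0.0208) passed the threshold under SATS and *Cdkn1c* under 5p (0.35, adjusted p = 0.0378; limma with Benjamini-Hochberg adjustment); 10.7% of the 16684 genes were called for SATS and 6.71% for 5p in that fit. For SP and 3p it called 0 of the 10 genes, against 2.32% and 1.31% of all.

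The proportion of *Meg3* to *Rian*, RNAs of the same locus and strand, was lowest under SATS in both sets. It was 0.299 under SATS in set 2, where the other 5 libraries gave 0.462 in scr, 0.457 in SP, 0.374 in 3p, 0.394 in 5p and 0.496 in untreated cells. In set 3 it was 0.249 under SATS, against 0.415 in scr, 0.468 in SP, 0.396 in 3p, 0.406 in 5p and 0.386 in luciferase. The size factor of a library cancels in this ratio. In set 1 the ratio was 0.774 in scr and 0.781, 0.936 and 0.935 in SP 1a, 1b and 1c. The ratio was chosen after the values were seen and was not tested. The miRNAs within the spans of these hosts are printed for orientation, with the seed in capitals (RefSeq, GRCm38.p6, plus strand), 1 hairpin of *Meg3* and 1 of *Rian*.
mmu-miR-770-5p (chr12:109563710-109563731): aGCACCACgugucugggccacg
mmu-miR-770-3p (chr12:109563744-109563765): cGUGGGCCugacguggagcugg
mmu-miR-341-5p (chr12:109611521-109611541): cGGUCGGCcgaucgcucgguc
mmu-miR-341-3p (chr12:109611556-109611576): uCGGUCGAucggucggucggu
Across the 5 genes of the 10 that host miRNAs, 8 hairpins gave 15 mature miRNAs with 15 different seeds, so none of them share a seed. Hairpin rows in the table were thin, at 6 to 25 reads for *Mir341*.

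**Figure D4:**
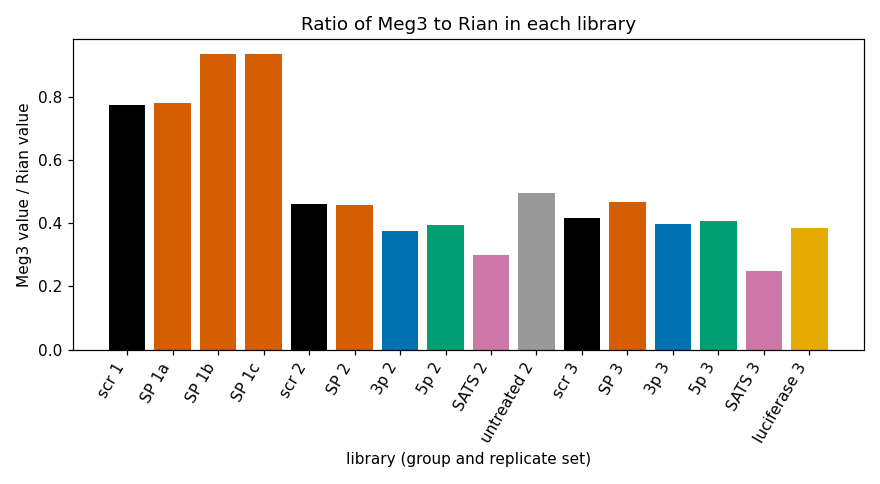
Ratio of the *Meg3* value to the *Rian* value in each of 16 libraries (bars from 0, named by group and replicate set, coloured by group). SATS has the lowest ratio of set 2 (0.299) and of set 3 (0.249), and set 1 the highest ratios.

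*Mirg* under SATS lay below scr in set 2, at 151 against 172, and above it in set 3, at 301 against 277, where it was the highest library. The lowest *Mirg* of each set was under 5p, at 141 and 183. *Meg3* was also below scr under 5p, at 987 in set 2 and 1656 in set 3 (log2 difference -0.25, SE 0.094, adjusted p = 0.196 from limma with the block, Benjamini-Hochberg adjustment).

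*Cdkn1c* (chr7:143458339-143461050) was highest under 5p in both sets. It was 484 in scr, 591 in SP, 569 in 3p, 602 in 5p, 517 in SATS and 489.9 in untreated cells of set 2. In set 3 it was 639 in scr, 556 in SP, 608 in 3p, 815 in 5p, 698 in SATS and 601 in luciferase. SP and 3p lay above scr in set 2 and below it in set 3, whereas 5p lay above it in both. The difference of 5p from scr was 0.33 (SE 0.120, adjusted p = 0.187 from limma with the block, Benjamini-Hochberg adjustment).

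*Peg3* (chr7:6703892-6730431) was 2815 to 3749 in set 2, highest in untreated cells, and 1739 to 2942 in set 3, lowest under 5p and highest under SP. Under SP over 3 sets its difference was 0.23 (SE 0.094, adjusted p = 0.759 from limma with the block, Benjamini-Hochberg adjustment), and that of *Meg3* was 0.23 with an SE of 0.112 and the same adjusted p. *Grb10* (chr11:11930508-12038683) was 2529 to 3016 in set 2 and 2794 to 3382 in set 3, which overlap, and 5p was the lowest library of each set. *Plagl1* (chr10:13060504-13131694) was 148 to 185 in set 2 and 188 to 309.6 in set 3. Its highest value was 3p of set 3, 0.72 above scr on the log2 scale, while 3p of set 2 was 0.07 below. *Peg10* under the siRNAs was 84.1% to 106% of scr in sets 2 and 3.

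The differences among control libraries, pooled over the 10 genes, give only a rough scale for these changes. Untreated cells differed from scr of set 2 by -0.24 to 0.46 over the 10 genes on the log2 scale, and luciferase from scr of set 3 by -0.45 to 0.09. Of 80 values under the 4 siRNAs, 4 lay outside the pooled range of both controls: *Meg3* under SATS in set 2, *H19* and *Rian* under SATS in set 3 and *Plagl1* under 3p in set 3. The ends of that range were *H19* in untreated cells and *Igf2* in luciferase. Some genes differed less between controls: untreated and luciferase gave 0.08 and -0.08 for *Meg3* and -0.13 and -0.06 for *Mest*. The pooled range therefore does not give the spread of each gene.

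**Figure D5:**
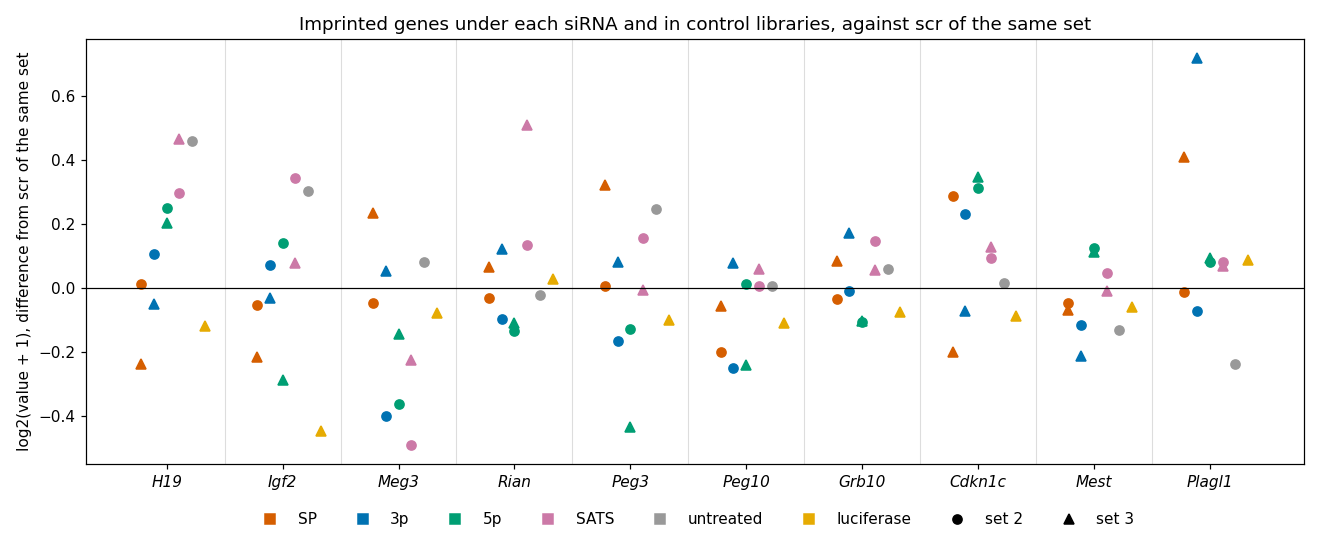
Difference in log2(value + 1) from scr of the same set for the 10 genes, under 4 siRNAs and in 2 control libraries; circles are set 2 and triangles set 3. Most values lie within the -0.45 to 0.46 spanned by the control libraries over the 10 genes pooled, a range wider than that of some single genes.

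The same direction against scr in both sets was found for 4 of the 10 genes under SP, 1 under 3p, 8 under 5p and 8 under SATS, where 57.5%, 55.7%, 62.7% and 66.2% of all genes kept direction. Under SATS 7 were higher (*H19*, *Igf2*, *Cdkn1c*, *Rian*, *Peg10*, *Grb10* and *Plagl1*) and *Meg3* was lower. Under 5p *H19*, *Cdkn1c*, *Mest* and *Plagl1* were higher and *Meg3*, *Rian*, *Peg3* and *Grb10* lower. At least 1 siRNA above scr in both sets and another below it in both were found for 6 of the 10 genes, against 31.0% of all genes. All comparisons of a set use the same scr library, so they are not independent. The median of the 10 log2 differences was 0.02 under SP, 0.02 under 3p, -0.09 under 5p and 0.09 under SATS, against 0.00, 0.00, 0.01 and 0.00 over all genes.

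Set 1 alone, which allows no test, gave *Meg3*, *Rian*, *Peg10* and *Mest* above scr in all 3 SP libraries (24.1% of all genes were) and *Cdkn1c* below it in all 3 (25.9%), which is 5 of 10 genes on 1 side against 49.9% of all genes. *Rian* was 4554 in scr and 5185, 5750.3 and 5911 in SP. Library 1c was above scr in 9 of the 10 genes, with *H19* at 361% and *Peg10* at 248% of it, 1a in 4 and 1b in 5. In 1c the summed mESC markers were the lowest of set 1 (36369, against 46562 to 64140), but within the range of set 2 (34593 to 39144). The fibroblast markers were the highest of set 1 in 1c, and so were the mesoderm markers listed (435). The primitive endoderm markers (217) and trophoblast markers (491) were not. Library 1c also had the fewest reads without *Rn45s*, 1883691. *Plagl1* was 258 in 1c and 35.4 in 1b against 100.4 in scr, on 11 to 32 reads.

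Among the 47 genes of the wider list that were tested beyond the 10, limma without the block called 0 in each comparison. With the block it called 1 for SP, 0 for 3p, 2 for 5p, 2 for SATS and 1 for 5p against 3p, against 0.746%, 0.285%, 2.37%, 2.64% and 3.26% of all genes. The clearest was *Impact*, a paternally expressed regulator of translation. It was 1971 under SP and 3378 in scr of set 2, 2230.4 and 3926 in set 3, and 1518, 2226 and 2859 in SP 1a, 1b and 1c against 3422 in set 1. All 5 SP libraries were lower than scr of their set, and so was the untreated library, at 2769. The log2 difference in sets 2 and 3 was -0.80 (SE 0.069, adjusted p = 5.94e-05 from limma with the block, Benjamini-Hochberg adjustment), and DESeq2 without a block gave -0.80 with an adjusted p of 0.00488. Over 3 sets the difference was -0.74 and was not called by limma with the block (adjusted p = 0.161, Benjamini-Hochberg adjustment) or by DESeq2 (adjusted p = 0.0832), whereas blocked edgeR called it (adjusted p = 8.12e-05). *Impact* was 3214 and 3711 under 3p, 3675 and 4108 under 5p and 3219.8 and 3604 under SATS. Whether SP differs from the other siRNAs in *Impact* was not tested.

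Under 5p, *Slc38a4*, a paternally expressed amino acid transporter gene, was 3304 against 4388 in scr of set 2 and 2383 against 3184 in set 3 (log2 difference -0.41, SE 0.070, adjusted p = 0.00622 from limma with the block, Benjamini-Hochberg adjustment). Those were the lowest values of their sets. It fell against 3p as well (-0.29, adjusted p = 0.0359, same test). *Zdbf2*, a paternally expressed zinc finger gene, was 4420.3 against 5856 in set 2 and 3628 against 5837 in set 3 (-0.55, SE 0.120, adjusted p = 0.0291, same test). SP and 3p also had less *Zdbf2* than scr in both sets, at 3942 and 4963 under SP and 4311 and 5181 under 3p. Under SATS, *Mcts2*, a retrogene within *H13* on the same strand, was 191 against 156 and 211 against 128 (0.50, adjusted p = 0.0488), and *Commd1*, a gene of copper handling that overlaps *Zrsr1* on the other strand, was 479 against 369.9 and 569 against 420.1 (0.40, adjusted p = 0.0356; limma with the block, Benjamini-Hochberg adjustment).

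Imprints are kept by ZFP57, TRIM28, DNA methyltransferases and their partners, and 18 such genes were listed. With the block, limma called 0 of them for SP, 0 for 3p, 2 for 5p, 4 for SATS and 2 for 5p against 3p, where of all genes the same fit called 0.746% for SP, 0.285% for 3p, 2.37% for 5p, 2.64% for SATS and 3.26% for 5p against 3p. Without the block, limma called 0 of the 18 in each comparison. Under 5p, *Zfp445*, a zinc finger protein that acts with ZFP57 at imprints, was 1009 against 1486 in scr of set 2 and 1162 against 1845 in set 3 (-0.61, adjusted p = 0.00351, limma with the block, Benjamini-Hochberg adjustment). *Cbx5*, which encodes the heterochromatin protein HP1 alpha, was 9038 against 12229 and 9102 against 14199 (-0.54, adjusted p = 0.00674). Both also fell in 5p against 3p, by 0.58 and 0.52 on the log2 scale (adjusted p = 0.00378 and 0.00713, same test). No other library of sets 2 and 3 was as low as 5p for either gene.

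Under SATS, *Zfp57* was 1781 against 2276 in scr of set 2 and 1329 against 1822 in set 3 (-0.40, adjusted p = 0.0269, limma with the block, Benjamini-Hochberg adjustment), and 3p stood near it in set 3, at 1312. *Tet1*, a dioxygenase that oxidises methylated cytosine, was 11785 against 14522 and 11474 against 15779 (-0.38, adjusted p = 0.0426). *Dppa3*, which protects methylation in the zygote, was 403 against 262 and 295 against 159 (0.75, adjusted p = 0.0190). *Hells*, a remodelling enzyme of heterochromatin, was 4858 against 3884 and 6792 against 5113 (0.37, adjusted p = 0.0321). The 4 genes thus moved 2 up and 2 down, and none of them was called without the block.

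Of 14 genes of the IGF pathway, listed as receptors, substrates and binding proteins around *Igf2*, the same test called 1 under 5p, where it called 2.37% of all genes, and 0 in the other comparisons. It was *Pik3r1*, a regulatory subunit of PI3 kinase, at 529.7 against 354 in set 2 and 638 against 507 in set 3 (0.45, adjusted p = 0.0326, limma with the block, Benjamini-Hochberg adjustment). Without the block, limma called 0 of the 14 in each comparison. *Igf1r*, the receptor of IGF2, had more in every library of set 2 (2122 to 2673) than of set 3 (1062 to 1539). Of the markers of other cell types, 8 of mesoderm, 8 of primitive endoderm, 5 of trophoblast and 7 of fibroblasts were tested. The blocked fit called *Tfap2c* and *Col1a1* lower under 5p, *Krt7* higher under SATS and *Col3a1* higher in 5p than in 3p. In these comparisons it called 2.37%, 2.64% and 3.26% of all genes. Without the block, limma called 0 of these markers in each comparison. Their part in the values of the imprinted genes was not tested.

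Within sets, the 10 genes did not move as 1 group. Over the 12 libraries of sets 2 and 3, after the set mean was subtracted from log2 values, the highest correlation of the 45 pairs was *Peg3* with *Grb10* (r = 0.75) and the lowest *Peg3* with *Cdkn1c* (r = -0.82). *Igf2* and *Peg10* correlated at 0.68, and the neighbours *Meg3* and *Rian* at -0.21. *Meg3* was closest in pattern to *Zfp692* (r = 0.95) and *Rian* to *Ccdc138* (r = 0.97), *Peg3* to *Flna* (r = 0.94) and *Grb10* to *Msn* (r = 0.92), the last pair of partners being genes of the actin cytoskeleton. *Peg10* was closest to *Gzf1* (r = 0.89), *Cdkn1c* to *Coq7* (r = 0.93), *Mest* to *AU015836* (r = 0.94) and *Plagl1* to *Stxbp5* (r = 0.93). Each is the highest of 11026 genes over 12 libraries that share sets and controls, and is given as a description.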

How the data were processed

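Total RNA depleted of rRNA was sequenced from male E14 mESCs. Per the study's methods, the authors used HISAT2 for alignment to mm10 and featureCounts for gene counts. The deposited values are a normalized signal, the reads of a gene over a DESeq2 (1.14.1) size factor. edgeR (3.16.5) served the authors for another table of set 1. In all 16 libraries, 100% of values were whole reads (tolerance 1e-06 reads) once divided by the value of 1 read, so reads were recovered. A second deposited table of set 1 only repeats these libraries and was not used here.

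Values were compared on log2(value + 1), for genes whose values summed to 10 or more, with limma 3.58.1 (R 4.3.3; trend), Benjamini-Hochberg adjustment and a threshold of 0.05. A fold change on this scale understates that of low genes. SP was compared with scr over 3 sets, with 1a, 1b and 1c averaged. The 10 libraries of scr, SP, 3p, 5p and SATS in sets 2 and 3 were fitted together. The planned fit had no block, since the study's methods name none. Set numbers in the labels pair the libraries: deviations from group means correlated between libraries of the same set at 0.77 to 0.82 (3 pairs) and 0.81 to 0.93 (10 distinct values, since with 2 libraries a group the sets mirror each other). Blocked values are therefore printed as well. For most single genes the planned fit is given only as a count of calls. Alternatives were other pseudocounts, filters and scaling, edgeR 4.0.16 and DESeq2 1.42.0 on recovered reads, further controls and each library left out. The fits were tested on simulated data.

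All 10 genes are named. Genes of the wider imprinted, imprint maintenance and IGF lists are named if called with or without the block or if they share a locus with the 10, and others were named after their values were seen. The members and lists were chosen with earlier results of these data known. Gene models were those of GENCODE M21 (GRCm38).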

Additional observations from a re-analysis of the deposited data

Results flagged for a closer look

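For 6 of the 10 genes, a pair of siRNAs lay on opposite sides of scr in both sets, as for 31.0% of all genes. Values are log2 differences from scr of the same set, set 2 first. *Igf2* gave -0.05 and -0.22 under SP and 0.35 and 0.08 under SATS. *Rian* gave -0.13 and -0.11 under 5p and 0.13 and 0.51 under SATS. *Peg3* gave 0.01 and 0.32 under SP and -0.13 and -0.44 under 5p. *Peg10* gave -0.20 and -0.06 under SP and 0.01 and 0.06 under SATS. *Grb10* gave -0.11 and -0.10 under 5p and 0.15 and 0.06 under SATS. *Mest* gave -0.05 and -0.07 under SP, -0.12 and -0.21 under 3p, and 0.12 and 0.11 under 5p.

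Of these, only 5p against 3p was tested, and *Mest* passed the threshold there with the block and not without it. The other differences between siRNAs were not tested. All of the values listed above except *Rian* under SATS in set 3 (0.51) lie within the pooled range of -0.45 to 0.46. By that range the untreated and luciferase libraries differed from scr. For *Mest* those controls differed from scr by less, -0.13 and -0.06.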

How the results depend on the processing

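Counts of calls rose with the pairing by set and again with further controls. With the replicate block, limma called 123 genes for SP, 47 for 3p, 391 for 5p, 436 for SATS and 537 for 5p against 3p, and 1 of the 10 genes, *Mest*, in the last; it changed no other call among the 10. edgeR with the block called 66 genes for SP over 3 sets, 134 for SP, 50 for 3p, 397 for 5p, 550 for SATS and 529 for 5p against 3p. DESeq2 called 1, 21, 8, 66, 3 and 89. With untreated and luciferase as further controls the calls were 4 for SP, 2 for 3p and 27 for 5p, and with the block as well, chosen after seeing the data, 387, 219, 1119 and, for SATS, 1785, with 1 of the 10 genes under 5p and 2 under SATS. Without 1 library, 5p called as few as 1 gene in place of 2.

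Leaving out 1 library, without the block, leaves sets unbalanced, and log2 differences then ran from -0.31 to 0.70 for *Meg3* and from -0.014 to 0.46 for *Peg3* under SP over 3 sets, from -0.63 to 0.12 for *Meg3* under 5p, and under SATS from -0.76 to 1.18 for *Igf2*, -0.76 to 0.037 for *Meg3* and -0.21 to 0.85 for *Rian*. Values that kept their direction but moved over 1.5 times were, under 5p, *Cdkn1c* (0.11 to 0.55), *Slc38a4* (-0.65 to -0.18) and *Pik3r1* (0.20 to 0.71), in 5p against 3p *Slc38a4* (-0.53 to -0.056), *Zfp445* (-0.85 to -0.30) and *Cbx5* (-0.70 to -0.35), and under SATS *Zfp57* (-0.62 to -0.19), *Dppa3* (0.39 to 1.11) and *Hells* (0.12 to 0.61). Any of the 4 libraries moved *Cdkn1c*, *Slc38a4* and *Hells* so far, either scr library *Pik3r1*, scr of set 3 *Dppa3*, 3p of set 3 *Zfp445* and *Cbx5*, and scr of set 2 or either SATS library *Zfp57*. A group left with 1 library is assumed to vary like the others. With 2 libraries per siRNA, and 5 to 39 reads of *Igf2* in set 1, small changes could not be resolved.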
